A study of Mus musculus with 4 samples.

Results

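Receptors for the fast transmitters GABA, glutamate, glycine and acetylcholine were examined in bulk RNA-seq data of dorsal root ganglia of the mouse, the clusters of sensory neuron cell bodies beside the spinal cord. Their genes were found by name alone: Gabr and Gabbr for GABA, Gria, Grik, Grin1 to Grin3, Grid and Grm for glutamate, Glra and Glrb for glycine, and Chrn and Chrm for acetylcholine. Of 14405 genes in the deposited matrix, 38 carried such a name. They comprised 37 receptor genes and Grin1os, a transcript antisense to Grin1 that matches the name and is no receptor. Among the 75 genes with such names in GENCODE M21, the other 37 had no row in the matrix and were not analysed here.

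The samples were 2 wild type and 2 mutant, all of mixed strain at 10 weeks of age. The mutant genotype reads Prdm12-/Fl; AvilCreERT2/+, that is, a null allele and a floxed allele of the transcription factor gene Prdm12 with 1 copy of a tamoxifen-inducible Cre driven by Avil, a gene of sensory neurons at large. Whether the wild types carried the Cre or received tamoxifen, and whether a sample pooled several animals, could not be read from the sources used here. No label says that the samples came from separate animals, so the p-values reflect only the scatter among these 4 libraries, part of which may be technical. The series deals with Prdm12 in the development of nociceptors, the pain-sensing neurons, and in their mature state, and the comparison here asks how receptor transcripts differed between mutant and wild type ganglia.

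As a check of the labels, Prdm12 measured 7.58 and 10.7 FPKM in wild type ganglia but 1.05 and 1.50 in mutant ganglia. FPKM are fragment counts corrected for transcript length and library size, so levels of different genes can be set side by side. The lowest sample maximum of any gene in the matrix was 1.0 FPKM, so a missing row does not show that a gene was silent. All 18 pan-neuronal markers had a row, with summed levels of 4507 and 6249 FPKM in wild type 1 and 2 and of 4893 and 8137 FPKM in mutant 1 and 2. Of 14 spinal cord markers 3 had a row, and Chat, Gad1, Gad2, Slc32a1 and Slc6a5, which mark cholinergic, GABA and glycine neurons, had none. Skeletal muscle markers were uneven within both groups, with sums of 446 and 3121 FPKM in the wild types and of 202 and 6024 FPKM in the mutants. Satellite glia markers lay between 7236 and 8269 FPKM, adipocyte markers between 322 and 2917 FPKM, and erythrocyte markers at 3414 and 3207 against 6402 and 6526 FPKM. In bulk RNA, fewer cells of a type and less RNA per cell cannot be told apart.

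Transmitter receptors come in a pair of designs. Ion channel receptors are rings of several subunits that open a pore when the transmitter binds: GABA-A and glycine receptors pass chloride, and nicotinic, AMPA, kainate and NMDA receptors pass cations. G protein receptors, which are the GABA-B, metabotropic glutamate and muscarinic types, act through intracellular signals. On the central endings of sensory neurons, GABA-A and GABA-B receptors mediate presynaptic inhibition in the spinal cord, and kainate and NMDA receptors at the same endings tune glutamate release.

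Most of these genes were weakly expressed. Their median level over the 4 samples was 2.25 FPKM, against 9.11 FPKM over the matrix, and 33 of 38 lay under 10 FPKM. The highest were Glrb (33.0 FPKM), Gabbr1 (30.9), Grik1 (19.4) and Chrna6 (18.8), in both groups. In the mutants Gabbr1 stood before Glrb and Chrna6 before Grik1, the reverse of the wild type order.

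**Figure D1:**
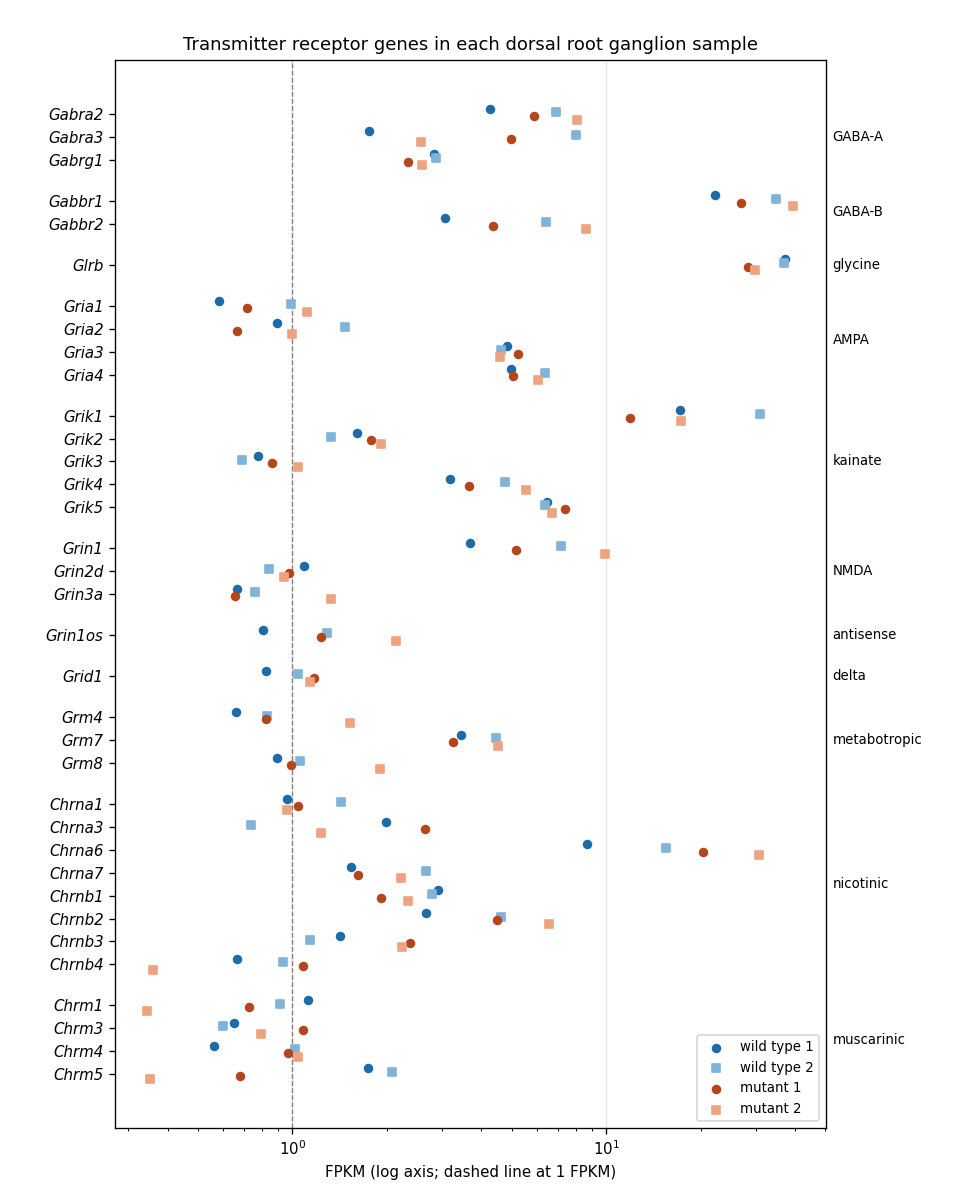
Level of 35 of the genes in FPKM (log axis) in wild type 1 and 2 (blue) and mutant 1 and 2 (orange), grouped by receptor family, with a dashed line at 1 FPKM. Glrb, Gabbr1, Grik1 and Chrna6 lie furthest to the right, and for many genes the squares (replicate 2) lie to the right of the circles (replicate 1) in both groups.

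The comparison used limma, a linear model with moderated variance, on log2(FPKM + 1), mutant minus wild type, over the 14040 genes whose mean reached 1 FPKM in wild type or mutant. Of the 38 members 32 met that minimum. Chrm3, Chrnb4, Gria1, Grik3, Grin2d and Grin3a did not, and 7 others met it in 1 group only: Chrm1, Chrm5 and Gria2 through the wild types and Chrm4, Grid1, Grm4 and Grm8 through the mutants. None of the 32 passed an adjusted p of 0.05 (limma, background 0.0% of genes tested). At an unadjusted p under 0.05, Chrna6 and Chrnb3 were higher, 2 genes against a background of 1.35%, and Chrm5 was lower, 1 gene against a background of 3.01% (4.36% in both directions). Both mutants lay above both wild types for 5 of the 32 (Chrna6, Chrnb3, Grik2, Grik5 and Grid1; background 12.5%) and below them for 5 (Chrm1, Chrm5, Chrnb1, Gabrg1 and Glrb; background 19.6%). These shares, and the 10 in both directions (background 32.1%), are close to the background on the deposited scale. With the libraries rescaled to equal pan-neuronal marker levels, 32 members met the minimum, with Grin2d in place of Chrm4. Of these, 4 lay above (Chrna6, Chrnb2, Grm4 and the antisense Grin1os, all genes 2.4%). Another 7 lay below (Chrm5, Chrna1, Chrna7, Chrnb1, Gria2, Grik1 and Grm7, all genes 9.3%). On that scale Grm4 met the minimum through the mutants alone, and Chrm5, Chrna1 and Gria2 through the wild types alone. Over the 25 members whose mean reached 1 FPKM in both groups, 4 lay above and 3 below, beside 1631 above and 2600 below of 13512 genes chosen in the same way. The median log2 difference of the 32 was 0.16, beside -0.00 over all genes tested, and 20 of them lay above 0 (background 49.1%). It was -0.07 when the libraries were rescaled to equal pan-neuronal marker levels, a scaling that moved the median of all genes to -0.22. Without wild type 1 it was -0.05 (all genes -0.05), and without mutant 2 it was 0.05 (all genes -0.04).

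**Figure D2:**
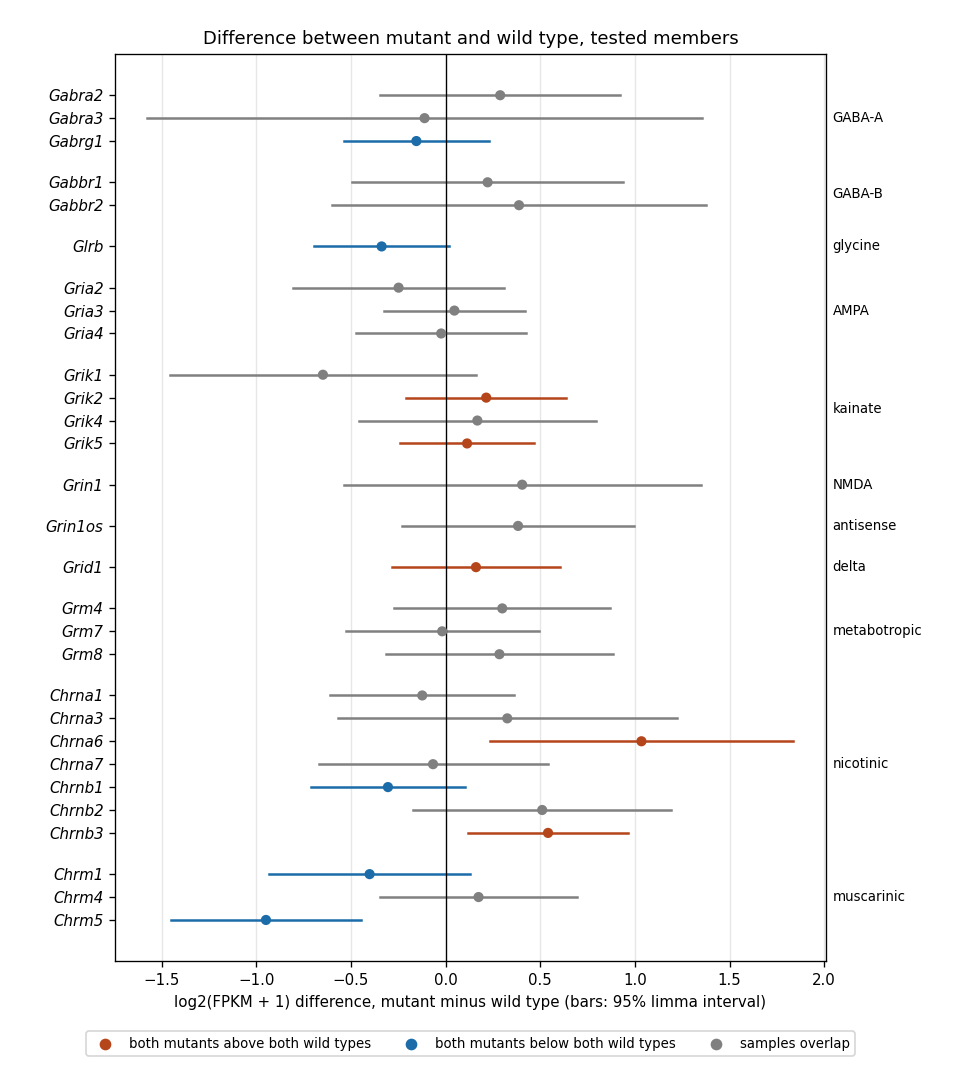
Difference in log2(FPKM + 1), mutant minus wild type, for 29 of the tested genes with 95% limma intervals (bars); colour shows whether the samples of the groups overlap. The intervals of Chrna6 and Chrnb3 lie above 0 and that of Chrm5 below 0, while the other intervals cross 0.

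The nicotinic acetylcholine receptor genes held the largest difference upward of the 32 tested. Chrna6 encodes the alpha6 subunit, which forms channels with beta2, beta3 and beta4 subunits and is known from dopamine neurons and from sensory neurons. Its levels were 8.72 FPKM in wild type 1, 15.5 in wild type 2, 20.3 in mutant 1 and 30.6 in mutant 2. Both mutants were above both wild types, and within each group replicate 2 was the higher. The group means were 12.1 ± 4.80 and 25.5 ± 7.28 FPKM (SD, n = 2 each), 2.10-fold apart. On the log2(FPKM + 1) scale this was a difference of 1.03 (standard error 0.32, 95% interval 0.23 to 1.84). Adjusted over all genes tested it missed the threshold (limma adjusted p = 0.960).

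In the authors' deposited table of 150 genes, Chrna6 was the only member listed, with a log2 fold change of 1.07 and q = 0.0182. With 1 sample left out, the log2 difference of Chrna6 ran from 0.65 without wild type 1 to 1.42 without wild type 2. It was 0.75 without mutant 2 and 1.32 without mutant 1. Pan-neuronal markers were highest in mutant 2, where Chrna6 was also highest. Scaled to equal pan-neuronal levels, Chrna6 stood at 11.5 and 14.0 in the wild types and at 24.2 and 21.5 in the mutants, a log2 difference of 0.80. The groups still did not overlap on that scale.

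Chrnb3, the gene of the beta3 accessory subunit that assembles with alpha6, lies beside Chrna6. In GENCODE M21 on GRCm38, the assembly also called mm10, Chrnb3 spans 27368711 to 27399730 on the plus strand of chromosome 8 and Chrna6 spans 27403212 to 27413944 on the minus strand. Their 3′ ends face each other across 3481 bases with no coding gene between. Chrnb3 was at 1.42 (wild type 1), 1.13 (wild type 2), 2.38 (mutant 1) and 2.24 FPKM (mutant 2). Here too both mutants exceeded both wild types, by 1.81-fold in the means. The log2 difference was 0.54 (95% interval 0.12 to 0.96, limma adjusted p = 0.962), and after scaling to pan-neuronal levels it was 0.38 with overlapping samples. Chrna6 exceeded Chrnb3 in each sample, by 6.14-fold and 13.7-fold in the wild types and by 8.55-fold and 13.7-fold in the mutants.

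Chrnb2 encodes the beta2 subunit, the common partner of neuronal alpha subunits. It was at 2.67 and 4.61 in the wild types against 4.50 and 6.60 FPKM in the mutants. Wild type 2 and mutant 1 nearly coincided, so the groups overlapped (log2 difference 0.51, 95% interval -0.17 to 1.19, limma adjusted p = 0.994). The ratio of Chrna6 to Chrnb2 within a library, which does not depend on library scaling, was 3.26 and 3.36 in the wild types and 4.51 and 4.64 in the mutants. Exons of Chrnb2 share 1365 bases with Adar on the opposite strand, and the sources used here do not state the strandedness of the libraries. Adar was at 5.70 (wild type 1), 6.0 (wild type 2), 6.0 (mutant 1) and 6.66 FPKM (mutant 2).

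Other nicotinic genes were low. Chrna7, the subunit of the homomeric alpha7 channel, was at 1.53 and 2.66 in the wild types against 1.62 and 2.22 FPKM in the mutants. Chrna3 and Chrnb4 encode the alpha3 and beta4 subunits of autonomic ganglia and lie 1.59 kb apart on chromosome 9. Chrna3 was at 1.99 (wild type 1), 0.739 (wild type 2), 2.64 (mutant 1) and 1.24 FPKM (mutant 2), higher in replicate 1 of both groups, while Chrnb4 ranged from 0.360 to 1.08 FPKM over the 4 samples. All 3 overlapped between the groups.

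Chrna1 and Chrnb1 encode subunits of the muscle type receptor at the neuromuscular junction. Chrna1 was at 0.960 and 1.43 in the wild types against 1.04 and 0.965 FPKM in the mutants. Chrnb1 was at 2.91 (wild type 1), 2.79 (wild type 2), 1.92 (mutant 1) and 2.33 FPKM (mutant 2), with both mutants lower (log2 difference -0.31, 95% interval -0.71 to 0.10). The muscle marker sum was highest in mutant 2 and lowest in mutant 1, and its part in these values was not tested. Chrnd, Chrne and Chrng, the other subunits of that receptor, had no row.

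The nicotinic genes together summed to 20.9 and 29.8 FPKM in the wild types and to 35.5 and 46.6 FPKM in the mutants, 1.62-fold higher in the means. Without Chrna6 the sums were 12.2 and 14.3 against 15.2 and 16.0 FPKM, 1.18-fold. Without both Chrna6 and Chrnb3 the sums overlapped, at 10.7 and 13.2 against 12.8 and 13.7 FPKM, 1.11-fold. Chrna6 made up 41.8% and 52.0% of the family sum in the wild types and 57.2% and 65.7% in the mutants. The exact two-sided permutation test of these shares gave p = 0.333, the smallest that 2 samples against 2 can give. The shares of Chrna7, at 7.34% and 8.92% against 4.57% and 4.78%, and of Chrnb1, at 14.0% and 9.36% against 5.40% and 5.0%, were lower in both mutants. Shares of a sum are tied to each other, so a larger Chrna6 share leaves less for the other genes. The FPKM of Chrna7 itself overlapped between the groups.

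**Figure D3:**
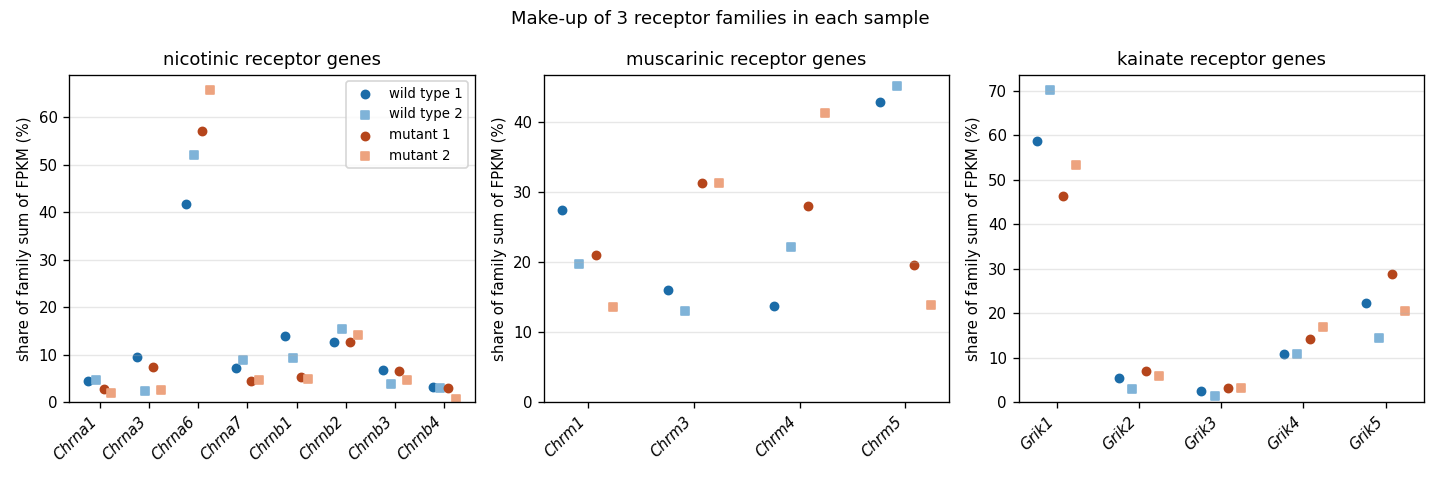
Share of each gene in the summed FPKM of its family, in percent, for the nicotinic, muscarinic and kainate families in wild type 1 and 2 (blue) and mutant 1 and 2 (orange). Chrna6 takes a larger share and Chrm5 and Grik1 a smaller share in each mutant than in either wild type.

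Muscarinic receptors are the G protein receptors for acetylcholine, and Chrm5 among them had the largest difference downward of the 32 tested genes. Chrm5, the receptor M5, which couples to Gq and is the rarest of the family in the brain, was at 1.75 and 2.08 in the wild types against 0.679 and 0.351 FPKM in the mutants. Both mutants lay under both wild types, at 1.91 ± 0.237 against 0.515 ± 0.232 FPKM (SD, n = 2 each), 3.72-fold lower in the means. The log2(FPKM + 1) difference was -0.95 (95% interval -1.45 to -0.45, limma adjusted p = 0.601). At these low levels the pseudocount of 1 holds the difference down, and with a pseudocount of 0.1 it was -1.76. Since Chrm5 entered the test through the wild types alone, a difference in this direction is favoured by the minimum itself. In GENCODE M21 Chrm5 is 1 exon of 1599 bases on the minus strand of chromosome 2, from 112479171 to 112480769, and holds coding sequence only.

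Chrm1, the Gq-coupled M1 receptor, was at 1.12 (wild type 1), 0.914 (wild type 2), 0.727 (mutant 1) and 0.345 FPKM (mutant 2). Both mutants were lower, with a log2 difference of -0.40 and a 95% interval of -0.94 to 0.13. Like Chrm5 it was tested through the wild types alone, so the minimum favours this direction. Chrm4, the Gi-coupled M4 receptor, ranged from 0.564 to 1.04 FPKM with overlap, and was tested through the mutants alone (log2 difference 0.17). Chrm3, another Gq-coupled receptor, was at 0.651 and 0.600 in the wild types against 1.08 and 0.792 FPKM in the mutants, and was not tested. Every gene with a row reached 1.0 FPKM in some sample, and Chrm3 did so in mutant 1 alone, which favours this direction. With Chrm5, the family summed to 4.08 and 4.62 FPKM in the wild types and to 3.45 and 2.53 FPKM in the mutants. Without it the sums overlapped, at 2.34 and 2.53 against 2.78 and 2.18 FPKM. Chrm5 made up 42.8% and 45.1% of the family in the wild types and 19.6% and 13.9% in the mutants.

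GABA-A receptors are chloride channels built from alpha, beta and gamma subunits, and all 6 members with a row were tested. None had an unadjusted p under 0.05. Gabra2 and Gabra3 encode alpha2 and alpha3, subunits studied in spinal pain control. Gabra2 was at 4.28 (wild type 1), 6.90 (wild type 2), 5.87 (mutant 1) and 8.05 FPKM (mutant 2). Gabra3 had the widest interval of the 32 tested genes, at 1.75 and 8.02 FPKM in the wild types and at 4.97 and 2.57 FPKM in the mutants, with 95% limits of -1.58 and 1.35. Gabrg1, a gamma subunit gene 115 kb from Gabra2 on chromosome 5, was at 2.82 (wild type 1), 2.88 (wild type 2), 2.33 (mutant 1) and 2.59 FPKM (mutant 2), lower in both (log2 difference -0.15, 95% interval -0.54 to 0.23).

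The 6 GABA-A genes summed to 26.6 and 43.7 FPKM in the wild types and to 37.4 and 37.9 FPKM in the mutants, so both mutants lay between the wild types. The share of Gabra3 in that sum ran from 6.61% to 18.4%, both within the wild types.

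GABA-B receptors couple to Gi and need both subunits, Gabbr1 to bind GABA and Gabbr2 to reach the surface and signal. Gabbr1 was at 22.3 and 34.8 in the wild types against 27.0 and 39.5 FPKM in the mutants (log2 difference 0.22, 95% interval -0.49 to 0.94). Gabbr2 was at 3.06 (wild type 1), 6.43 (wild type 2), 4.36 (mutant 1) and 8.64 FPKM (mutant 2), with a log2 difference of 0.39 and a 95% interval of -0.60 to 1.37. For both genes replicate 2 was the higher in each group, in the same order of samples as the pan-neuronal sum, and the groups overlapped. Gabbr1 exceeded Gabbr2 by 5.41-fold to 7.28-fold in the wild types and by 4.57-fold to 6.20-fold in the mutants.

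The glycine receptor appeared through a single gene. Glrb encodes the beta subunit, which links the receptor to the scaffold protein gephyrin and needs alpha subunits to form the usual channel, and none of the 4 Glra genes had a row. Glrb was the most abundant member, at 37.2 and 36.9 in the wild types against 28.3 and 29.8 FPKM in the mutants. On the deposited scale the groups did not overlap, at 37.0 ± 0.219 against 29.1 ± 1.04 FPKM (SD, n = 2 each), 1.27-fold lower in the mutant means. The log2 difference was -0.34 with a 95% interval of -0.70 to 0.02 (limma adjusted p = 0.994). Scaled to equal pan-neuronal levels, Glrb overlapped, at 49.2 and 33.3 in wild type ganglia against 33.8 and 20.9 in mutant ganglia, with a log2 difference of -0.59. The summed markers of fibroblasts and meninges, 14 of 15 with a row, were also lower in both mutants. The sums were 19825 and 18323 FPKM in the wild types against 9686 and 6502 FPKM in the mutants. Ptgds alone held most of the wild type sums, at 13098 and 13055 FPKM, and was at 3201 and 3025 FPKM in the mutants. Of the 14 genes, 7 were lower in both mutants (background 19.6%) and 0 higher. The part of those cells in the Glrb difference was not tested.

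Glrb and the AMPA receptor gene Gria2 are neighbours on the minus strand of chromosome 3, with 40.8 kb and no coding gene between them. The 250 bases before each start are printed because these neighbours differ widely in level: Glrb was the most abundant member, and Gria2 averaged near 1 FPKM. The sequences are from RefSeq on GRCm38.p6, 5′ to 3′ on the minus strand, with capitals on matches to the motifs described next. The windows are chr3:80913661-80913910 for Glrb and chr3:80802836-80803085 for Gria2.
Glrb: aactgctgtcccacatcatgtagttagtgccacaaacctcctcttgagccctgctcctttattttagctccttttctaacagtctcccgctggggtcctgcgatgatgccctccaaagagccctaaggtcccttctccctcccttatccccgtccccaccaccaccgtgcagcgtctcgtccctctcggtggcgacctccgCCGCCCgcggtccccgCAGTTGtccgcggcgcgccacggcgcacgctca
Gria2: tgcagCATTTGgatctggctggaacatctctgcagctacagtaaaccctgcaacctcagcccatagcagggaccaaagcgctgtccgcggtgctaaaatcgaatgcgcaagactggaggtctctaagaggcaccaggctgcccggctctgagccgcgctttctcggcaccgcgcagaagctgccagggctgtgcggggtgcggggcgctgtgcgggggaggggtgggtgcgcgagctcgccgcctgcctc

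Both windows are rich in G and C, at 62.4% for Glrb and 64.8% for Gria2 beside a median of 52.4% over all promoter windows, and they hold 20 and 19 CG pairs beside a median of 6. Motifs were searched on both strands. The GC box GGGCGG, present in 32.7% of all windows of this length, occurred in Glrb only. The E-box CANNTG, present in 66.2%, occurred once in each. The TATA box TATAAA (12.4% of all windows), the cyclic AMP response element TGACGTCA (1.55%), the octamer ATGCAAAT (1.60%) and the AP-1 site TGACTCA (4.46%) had no match in either window. Promoter windows were found for 26 of the 38 members, and Chrna6 and Chrnb3 were not among them.

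AMPA receptors carry fast excitatory currents, and their GluA2 subunit, from Gria2, makes the channel nearly impermeable to calcium once its RNA is edited. Gria4 and Gria3 were the abundant members. Gria4 was at 4.98 (wild type 1), 6.40 (wild type 2), 5.06 (mutant 1) and 6.07 FPKM (mutant 2), with a log2 difference of -0.02 and a 95% interval of -0.47 to 0.43. Gria3 was at 4.83 and 4.63 in the wild types against 5.25 and 4.59 FPKM in the mutants (log2 difference 0.05, 95% interval -0.32 to 0.42). Gria2 was at 0.893 (wild type 1), 1.48 (wild type 2), 0.664 (mutant 1) and 0.996 FPKM (mutant 2). Its log2 difference was -0.25 with a 95% interval of -0.81 to 0.31, and it was tested through the wild types alone. Gria1 was between 0.584 and 1.11 FPKM.

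The share of Gria2 in the AMPA sum was 7.92% and 10.9% in the wild types and 5.68% and 7.80% in the mutants. Both mutant shares lay below both wild type shares, the nearest pair by little, and the exact two-sided permutation test gave p = 0.333, its smallest value here. The AMPA sum itself overlapped, at 11.3 and 13.5 against 11.7 and 12.8 FPKM. The delta receptor gene Grid1, whose product organises synapses, was at 0.826 and 1.04 in the wild types against 1.17 and 1.14 FPKM in the mutants. It was higher in both mutants (log2 difference 0.16, 95% interval -0.28 to 0.60). Grid1 was tested through the mutants alone, which favours this direction.

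Kainate receptors were led by Grik1, whose subunit GluK1 is the characteristic kainate receptor subunit of small sensory neurons. Grik1 was at 17.2 (wild type 1), 31.0 (wild type 2), 11.9 (mutant 1) and 17.4 FPKM (mutant 2). Wild type 2 stood far above the rest and mutant 2 just above wild type 1, so the groups overlapped. The means were 24.1 ± 9.76 and 14.6 ± 3.89 FPKM (SD, n = 2 each), 1.65-fold lower in the mutants, and the log2 difference was -0.65 (95% interval -1.46 to 0.16, limma adjusted p = 0.994). It was -1.06 without wild type 1, -0.24 without wild type 2, -0.39 without mutant 1 and -0.91 without mutant 2. Scaled to equal pan-neuronal levels, Grik1 no longer overlapped, at 22.7 and 28.0 in wild type and at 14.2 and 12.2 in the mutants (log2 difference -0.89).

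The other kainate genes went the other way or overlapped. Grik5, the GluK5 subunit gene that pairs with GluK1 to GluK3, was at 6.50 and 6.40 in the wild types against 7.39 and 6.73 FPKM in the mutants, higher in both (log2 difference 0.11, 95% interval -0.24 to 0.47), and overlapped with a difference of -0.10 after scaling to pan-neuronal levels. Grik2 was at 1.60 (wild type 1), 1.32 (wild type 2), 1.78 (mutant 1) and 1.92 FPKM (mutant 2), also higher in both (log2 difference 0.21). After scaling to pan-neuronal levels Grik2 overlapped too, at 2.12 and 1.19 in the wild types against 2.13 and 1.35 in the mutants. Grik4, the partner subunit GluK4, was at 3.18 and 4.77 against 3.65 and 5.54 FPKM. Grik3, at 0.776 and 0.690 against 0.861 and 1.04 FPKM, was not tested. It reached 1.0 FPKM, as every gene with a row did in some sample, in mutant 2 alone, which favours this direction.

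Grik1 made up 58.8% and 70.2% of the kainate sum in the wild types and 46.5% and 53.3% in the mutants. The exact two-sided permutation test of these shares gave p = 0.333. Without Grik1 the family summed to 12.1 and 13.2 FPKM in the wild types and to 13.7 and 15.2 FPKM in the mutants, 1.15-fold higher in the mutant means, while with it the sums overlapped. These sums are on the deposited scale, and after scaling to pan-neuronal levels Grik2, Grik3, Grik4 and Grik5 each overlapped. The ratio of Grik1 to Grik5 was 2.64 and 4.84 in wild type and 1.61 and 2.58 in the mutants.

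NMDA receptors require the Grin1 subunit, which binds glycine or serine as a co-agonist. Grin1 was at 3.69 and 7.20 in the wild types against 5.16 and 9.94 FPKM in the mutants, again with replicate 2 higher and the groups overlapping (log2 difference 0.40, 95% interval -0.54 to 1.35). Of the 4 Grin2 genes, which bind glutamate, Grin2d alone had a row, at 0.840 to 1.09 FPKM. Grin3a, a modulatory subunit gene, was at 0.657 to 1.32 FPKM. The antisense transcript Grin1os was at 0.806 (wild type 1), 1.29 (wild type 2), 1.24 (mutant 1) and 2.14 FPKM (mutant 2). Its exons share 1307 bases with those of Grin1, and without known strandedness reads of the pair cannot be told apart. The ratio of Grin1 to Grin1os was between 4.17 and 5.58 in all 4 samples.

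The metabotropic glutamate receptor genes with a row, Grm4, Grm7 and Grm8, all encode Gi-coupled receptors that lower transmitter release. Grm7 was at 3.44 and 4.45 in the wild types against 3.26 and 4.54 FPKM in the mutants (log2 difference -0.02, 95% interval -0.53 to 0.49), with the mutants enclosing the wild types. Grm8 was at 0.895 (wild type 1), 1.06 (wild type 2), 0.988 (mutant 1) and 1.91 FPKM (mutant 2), with a log2 difference of 0.28. Grm4 was at 0.661 and 0.828 in the wild types against 0.822 and 1.52 FPKM in the mutants (log2 difference 0.30). Grm8 and Grm4 were tested through the mutants alone, were highest in mutant 2 and overlapped.

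By transmitter and type, the tested genes were spread around 0. The median log2 difference was 0.16 over 6 GABA channel genes, 0.30 over the 2 GABA-B genes, 0.11 over 9 glutamate channel genes and 0.33 over 7 nicotinic genes. The 3 tested muscarinic genes and 2 of the 3 metabotropic genes passed the minimum through 1 group only, so their medians are not given here. After scaling to pan-neuronal levels the GABA channel median was -0.05, the glutamate channel median -0.12 (over 10 genes that then met the minimum) and the nicotinic median 0.18. With 1 sample left out the GABA channel median was -0.09 without wild type 1, the GABA-B median -0.07 without wild type 1 and -0.04 without mutant 2, and the glutamate channel median -0.01 without mutant 2. Replicate 2 exceeded replicate 1 in both groups for 20 of the 38 members (52.6%), beside 40.3% of all genes tested, and the reverse held for 7.

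**Figure D4:**
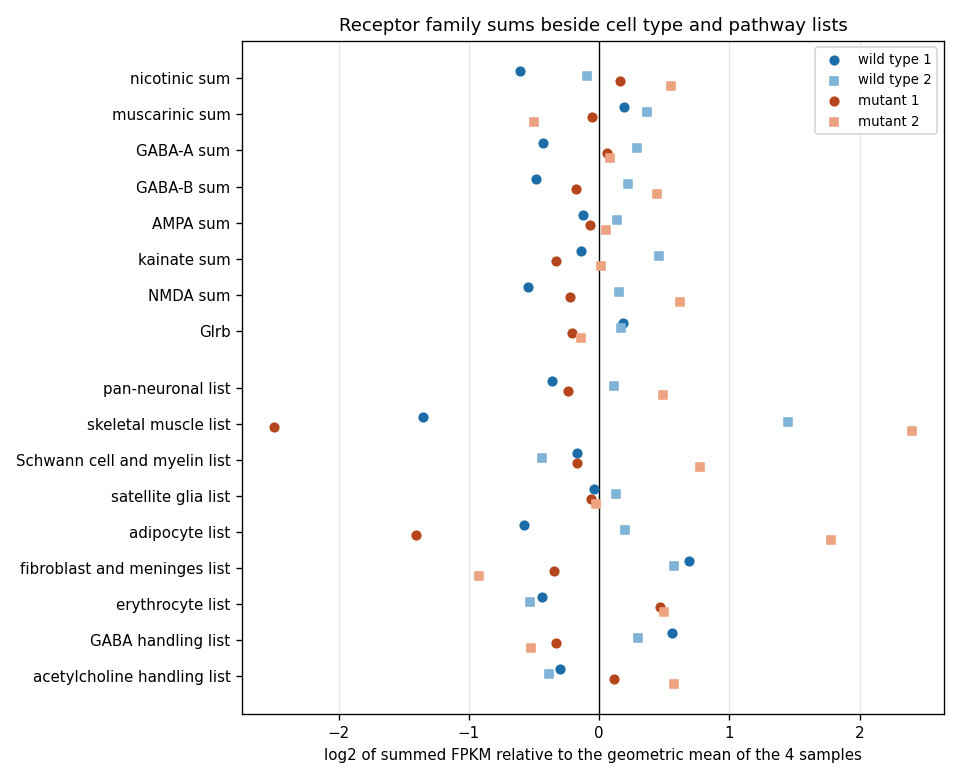
Summed FPKM of each receptor family (Glrb alone for glycine) and of cell type and pathway lists in the 4 samples, as log2 relative to the geometric mean of the 4. GABA-B and NMDA sums follow the sample order of the pan-neuronal list, the nicotinic sum is higher in both mutants, and muscle and adipocyte lists separate replicate 1 from replicate 2.

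Genes that make, move and remove the transmitters were given from lists chosen by function. No member of these lists passed over all genes. Counts without overlap in each list stand against 12.5% of all genes tested for higher and 19.6% for lower. Of 7 tested GABA handling genes, 6 were lower in both mutants (background 19.6%) and 0 higher, with 3 lower at an unadjusted p under 0.05 (background 3.01%) and a median log2 difference of -0.27. Slc6a12, the gene of the betaine and GABA transporter, was at 21.8 and 16.4 against 8.76 and 3.76 FPKM (log2 difference -1.55, limma adjusted p = 0.667), and Slc6a13, that of GAT2, at 77.9 and 67.5 against 32.1 and 26.7 FPKM (log2 difference -1.28, limma adjusted p = 0.278). Slc6a13 is also a member of the fibroblast and meninges list. The sums of that list, mostly Ptgds in the wild types, were lower in both mutants, and 7 of 14 tested genes were lower without overlap. The part of those cells in the transporter values was not tested.

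The glycine transporter gene Slc6a9 was likewise lower, at 20.0 and 13.1 in the wild types against 8.34 and 5.56 FPKM in the mutants (log2 difference -1.14, limma adjusted p = 0.698). Of 6 tested glycine handling genes 2 were lower without overlap and 1 higher. Among 15 glutamate handling genes 4 were lower and 2 higher without overlap, with a median log2 difference of 0.04. Both that reached an unadjusted p under 0.05 are glutamine transporter genes. Slc38a3 was at 13.5 and 12.5 against 3.76 and 3.99 FPKM (log2 difference -1.52, limma adjusted p = 0.175) and Slc38a2 at 168 and 145 against 104 and 60.5 FPKM (log2 difference -0.97, limma adjusted p = 0.899). Slc17a7, the vesicular glutamate transporter gene of large sensory neurons, was at 17.5 (wild type 1), 18.5 (wild type 2), 20.7 (mutant 1) and 28.8 FPKM (mutant 2), with a log2 difference of 0.42 and a limma adjusted p = 0.994.

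On the acetylcholine side 3 handling genes were tested and 2 were higher without overlap. Ache, the gene of acetylcholinesterase, which breaks acetylcholine down, was at 12.6 and 12.9 in the wild types against 18.0 and 24.4 FPKM in the mutants (log2 difference 0.67, 95% interval 0.21 to 1.14, limma adjusted p = 0.823). Prima1 encodes the membrane anchor of that enzyme and was at 3.96 (wild type 1), 2.76 (wild type 2), 5.20 (mutant 1) and 7.94 FPKM (mutant 2), with a log2 difference of 0.79 and a limma adjusted p = 0.964. Both were highest in mutant 2, the library with the highest Schwann cell and myelin sum. Of 19 such markers 11 were higher in both mutants (background 12.5%), and the sum was 12544 and 10393 FPKM in the wild types and 12515 and 24103 FPKM in the mutants. The part of those cells was not tested. Bche, the related butyrylcholinesterase gene, overlapped at 2.55 and 2.40 against 2.29 and 2.82 FPKM. Chat, Slc18a3 and Slc5a7, which make, load and recover acetylcholine, had no row.

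Receptor partners lay on both sides of 0. Of 18 tested partners of inhibitory receptors 2 were higher and 2 lower without overlap (median log2 difference 0.02), and the abundant trafficking genes Gabarapl2 and Gabarap had log2 differences of -0.06 and -0.08. Of 22 tested partners of glutamate receptors 8 were higher (background 12.5%) and 4 lower (background 19.6%), with a median of 0.17. Cacng4, an auxiliary subunit gene of AMPA receptors, was at 4.15 and 4.55 against 3.31 and 2.37 FPKM (log2 difference -0.49, limma adjusted p = 0.994), and the scaffold gene Dlg1 at 19.5 and 16.5 against 14.2 and 12.3 FPKM (log2 difference -0.41, limma adjusted p = 0.994). Of 9 tested partners of acetylcholine receptors 1 was higher and 2 lower. Agrn, which encodes the receptor-clustering protein agrin, was at 12 and 8.54 against 12.1 and 9.47 FPKM (log2 difference 0.07). Lynx1, a membrane-anchored modulator of nicotinic receptors, was at 25.8 and 27.5 against 26.9 and 39.4 FPKM, with overlap.

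**Figure D5:**
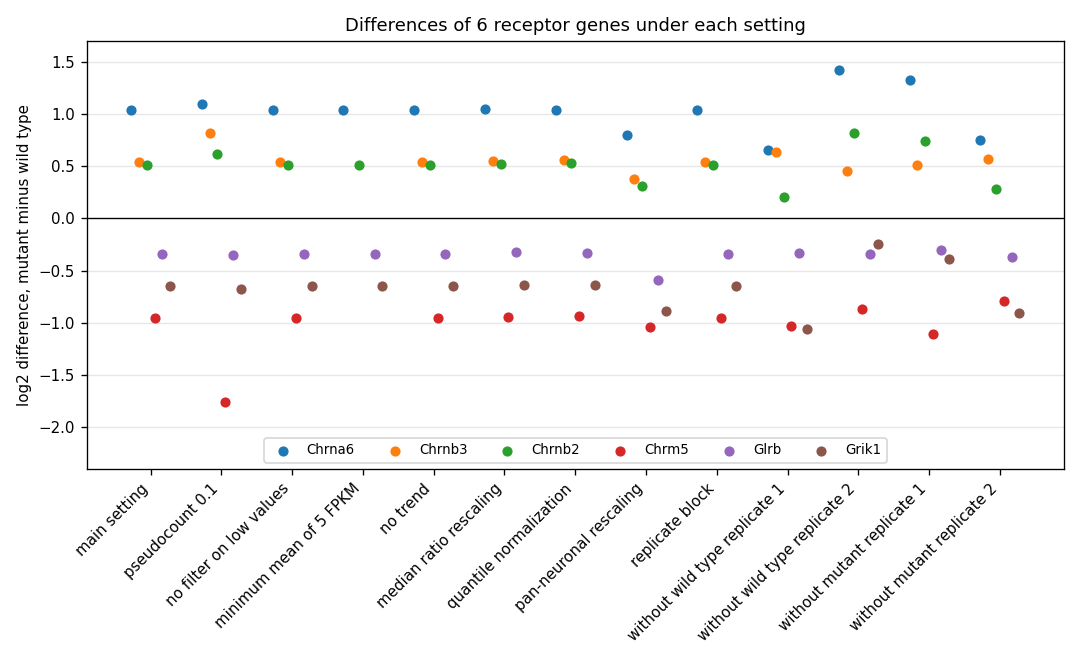
Log2 difference, mutant minus wild type, of 6 receptor genes under the main setting, each alternative setting and with each sample left out. Chrna6, Chrnb3 and Chrnb2 stay above 0 and Chrm5, Glrb and Grik1 below 0 in each setting in which they were tested, with Chrna6 between 0.65 and 1.42 and Grik1 between -1.06 and -0.24.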

How the data were processed

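The authors deposited FPKM values for 14405 genes in 4 samples and a list of 150 genes, each given its p-value, q-value and log2 fold change, in Cuffdiff's column format per the file headers, with a test statistic (a score) not used here. CASAVA, TopHat2 2.1.2, Cufflinks 2.2.1 and mm10 are named in the submitters' processing notes. The sources used here give no settings, strandedness or library scaling. FPKM hold no read counts, so the depth is unknown and no interval for counting error was computed.

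Values were fitted with limma 3.58.1 (R 4.3.3) on values transformed to log2(FPKM + 1), letting the prior variance depend on expression, over 14040 genes whose mean reached 1 FPKM in wild type or mutant. P-values were adjusted by Benjamini and Hochberg. The fit was tested on simulated data. Alternatives were the pseudocount, filter, trend, rescaling by median ratios, quantiles or pan-neuronal markers, a replicate block, and leaving out each sample. Shares were tested by exact permutation.

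Members and gene lists were chosen with earlier results of these data known. Genes are given in full where they reached an unadjusted p under 0.05, stood in the authors' list or were among the 2 highest of their transmitter and type. From each pathway list, up to 3 genes with unadjusted p under 0.05 or else the 2 highest are given. Bche, Slc17a7 and Adar were added after their values were seen, and further members are given by their values. Some genes that this rule covers enter the counts, medians and sums but are not reported here. Positions are from GENCODE M21.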

Additional observations from a re-analysis of the deposited data

How the results depend on the processing

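No member passed an adjusted p of 0.05 with limma in the main fit or in any alternative that kept all 4 samples. The closest was Chrna6 with a replicate block (limma adjusted p = 0.0531). Of all genes tested, 0.434% passed with the replicate block and 0.213% after pan-neuronal rescaling. In the main fit and the other alternatives with all 4 samples 0.0% of all genes passed, so those settings do not set the members apart. At an unadjusted p under 0.05, the main count was 2 higher and 1 lower. It became 1 and 0 with a minimum of 5 FPKM, which left 12 members (all genes 1.2% and 2.9%). With the replicate block it was 5 and 3, where 4.6% and 5.9% of all genes did so. After rescaling to pan-neuronal markers it was 0 higher and 1 lower (all genes 0.121% and 1.91%). Members without overlap were 5 higher and 5 lower in the main fit. After pan-neuronal rescaling they were 4 and 7, beside 2.4% and 9.3% of all genes. They were 2 and 1 with the 5 FPKM minimum (11.7% and 19.3% of all genes), 8 higher after median ratios (15.7%) and 10 after quantiles (16.6%). They ran from 6 to 22 higher (22 without wild type 2, 20 without mutant 1 and 9 without mutant 2, where 35.5%, 40.6% and 23.5% of all genes did so) and from 6 to 12 lower (12 without wild type 1 and 8 without mutant 2, beside 36.9% and 37.2%) when 1 sample was left out, which sets 1 sample against 2. The nicotinic median was 0.53 with a pseudocount of 0.1, 0.13 with no filter and 0.77 with the 5 FPKM minimum, and ran from 0.083 (without mutant 1) to 0.25 with a sample left out. The muscarinic median, -0.40 over 3 genes that each met the minimum in 1 group only, was -0.87 with a pseudocount of 0.1, -0.11 over 4 genes with no filter and -0.76 over 2 genes after pan-neuronal rescaling, which also gave a glutamate channel median of -0.12 over 10 genes. The metabotropic median, 0.28 over 3 genes, ran from -0.21 (1 gene, without mutant 2) to 0.53 with a sample left out. Signs turned after pan-neuronal rescaling for Gabbr1 (-0.025) and Grik5 (-0.10), and for Grm7 after quantiles (0.012). With a sample left out, ranges crossed 0 for Chrm4 (-0.011 to 0.36), Gabbr1 (-0.089 to 0.53), Gabbr2 (-0.048 to 0.82) and Grm7 (-0.21 to 0.17). The replicate numbers are not said to pair samples. Same-numbered samples deviated together over all genes tested (r = 0.481), as a hint from the data only, and with 2 pairs the block was kept as an alternative. Unless named, the cause of a change was not tested.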
